A study of Mus musculus with 8 samples.

Results

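Pou5f1, Sall4, Lin28a, Dppa2, Dppa4, Dppa5a, Nanog, Sox2, Zfp42 and Tfap2c, genes long used to describe pluripotent and germ cells, were followed in mouse oocytes grown in culture. They were taken by name, with earlier results of these data known, and all 10 were found among the 55385 genes of the count table. The oocytes came from 2 XX embryonic stem cell lines of C57BL/6 x 129/SvJ background, called sex converted XX and native XX in the labels, and both carry Blimp1-mVenus and Stella-ECFP reporter transgenes. Primordial germ cell-like cells of each line were combined, 5000 at a time, with 75000 somatic cells from female gonads of day 12.5 embryos, and kept 21 days in differentiation culture and 11 days in growth culture. The groups, with 2 libraries each, were sex-converted MII oocytes (matured for a further 16 hours and arrested at metaphase of the second meiotic division), sex-converted GV oocytes (grown, with the germinal vesicle, the prophase nucleus, still intact), native MII oocytes and native GV oocytes. A library is polyadenylated RNA of a pool of 35 to 58 MII or 31 to 158 GV oocytes, and each line is 1 named clone, so that line and clone cannot be told apart. No oocytes grown in an animal are among these groups.

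Pou5f1 (Oct4), Sox2 and Nanog are transcription factors at the centre of the pluripotency network of the inner cell mass and of embryonic stem cells. Sall4 is a zinc finger protein that binds the NuRD chromatin complex and is needed by oocytes and early embryos, and Lin28a binds RNA and blocks maturation of the let-7 microRNAs. Growing oocytes make and store mRNA, and transcription is silent by the time maturation begins, so that mRNA levels in maturation change through storage, decay and changes in the poly(A) tail. Selection of polyadenylated RNA reads all of these together: a longer tail and more mRNA cannot be told apart here, and neither can a shorter tail and less mRNA.

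Total counts ran from 10306471 to 14999003 reads per library. All 12 oocyte defining markers were detected in every library, with a summed level of 17600 to 21100 CPM (counts scaled by library size, defined with the levels) in MII and 13800 to 16500 CPM in GV libraries. Of the 10 markers of undifferentiated embryonic stem cells, 2 to 4 were at 0 reads in each library, and Utf1, Fgf4, Tdgf1 and Nr0b1 had at most 4 reads in any library. Others of the 10 were well detected, with 39 to 83 reads of Gbx2, 356 to 591 of Esrrb and 269 to 383 of Klf4 in MII libraries and 2148 to 3214, 1160 to 2305 and 242 to 369 in GV libraries, and the summed level of the list was 192 to 205 CPM in MII and 263 to 317 CPM in GV libraries. Summed granulosa and cumulus markers, 16 genes, were at 124 to 194 CPM in MII and 57.5 to 79.4 CPM in GV libraries, with 2 to 7 of the 16 at 0 reads, and summed stromal markers, 10 genes, were at 15.6 to 88 CPM in MII and 1.34 to 1.48 CPM in GV libraries. Native MII replicate 1 was highest for both sums. Much of the granulosa and cumulus sum came from Cyp19a1, Kitl and Nr5a2. Their means were 49.3, 31.2 and 27.5 CPM in sex-converted MII and 12.9, 5.56 and 37.8 CPM in sex-converted GV oocytes. In the native line the means were 56.6, 22.9 and 26.2 CPM at MII and 17.4, 4.2 and 39.3 CPM at GV. Nr5a2 is also among the pluripotency genes listed below. Amh, Foxl2, Wt1 and Amhr2, of the same 16 genes, had at most 10 reads in any library. Others were detected, and Gja1, Fst, Inha and Inhba were highest in native MII replicate 1, with 470, 145, 84 and 56 reads. Gja1 averaged 5.97 ± 5.49 CPM in sex-converted MII against 0.734 ± 0.616 CPM in sex-converted GV oocytes. In the native line it averaged 25.7 ± 27.1 CPM at MII against 0.756 ± 0.124 CPM at GV (SD, n = 2 each). In such pools fewer cells of a type and less RNA per cell cannot be told apart. The GV libraries differed among themselves in a way that crossed the lines, which is described with the genes it touches.

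For the CPM values, each count was divided by the library total times its trimmed mean of M-values (TMM) factor. Divided by the length of the union of each gene's exons, so that genes can be set side by side, the levels had different orders at the 2 stages. In MII oocytes Lin28a came first, with 240 ± 5.63 CPM per kilobase in the sex-converted and 237 ± 14.5 in the native line (SD, n = 2 each), followed by Sall4 with 186 ± 30.3 and 210 ± 8.39. Pou5f1 was the third in order in both lines with 66.9 ± 12.4 and 63.3 ± 5.16 CPM per kilobase, then came Dppa5a, Tfap2c, Sox2 and Dppa2, and no neighbours among these 7 genes overlapped in their library values.

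In GV oocytes Dppa5a had the highest mean, at 83.9 ± 47.1 CPM per kilobase in the sex-converted and 92.4 ± 65.8 in native oocytes (SD, n = 2 each). The libraries of Dppa5a and Dppa2 overlapped, as did those of Dppa2 and Pou5f1 and those of Lin28a and Sall4, so the order within these pairs does not go beyond their spread. With the length of the longest transcript in place of all exons Pou5f1, at 77.9 CPM per kilobase in the sex-converted line and 78.1 in the native one, stood above Dppa2, at 48.1 and 59.3. Dppa4, Tfap2c, Sox2 and Zfp42 followed in that order in both lines, with Sox2 and Zfp42 overlapping in the native line. Among tested protein-coding genes, ranked by the same measure, Sall4 stood at percentile 97.6 in sex-converted MII oocytes against 85.4 in sex-converted GV oocytes, and Dppa2 at percentile 50 against 94.2.

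**Figure D1:**
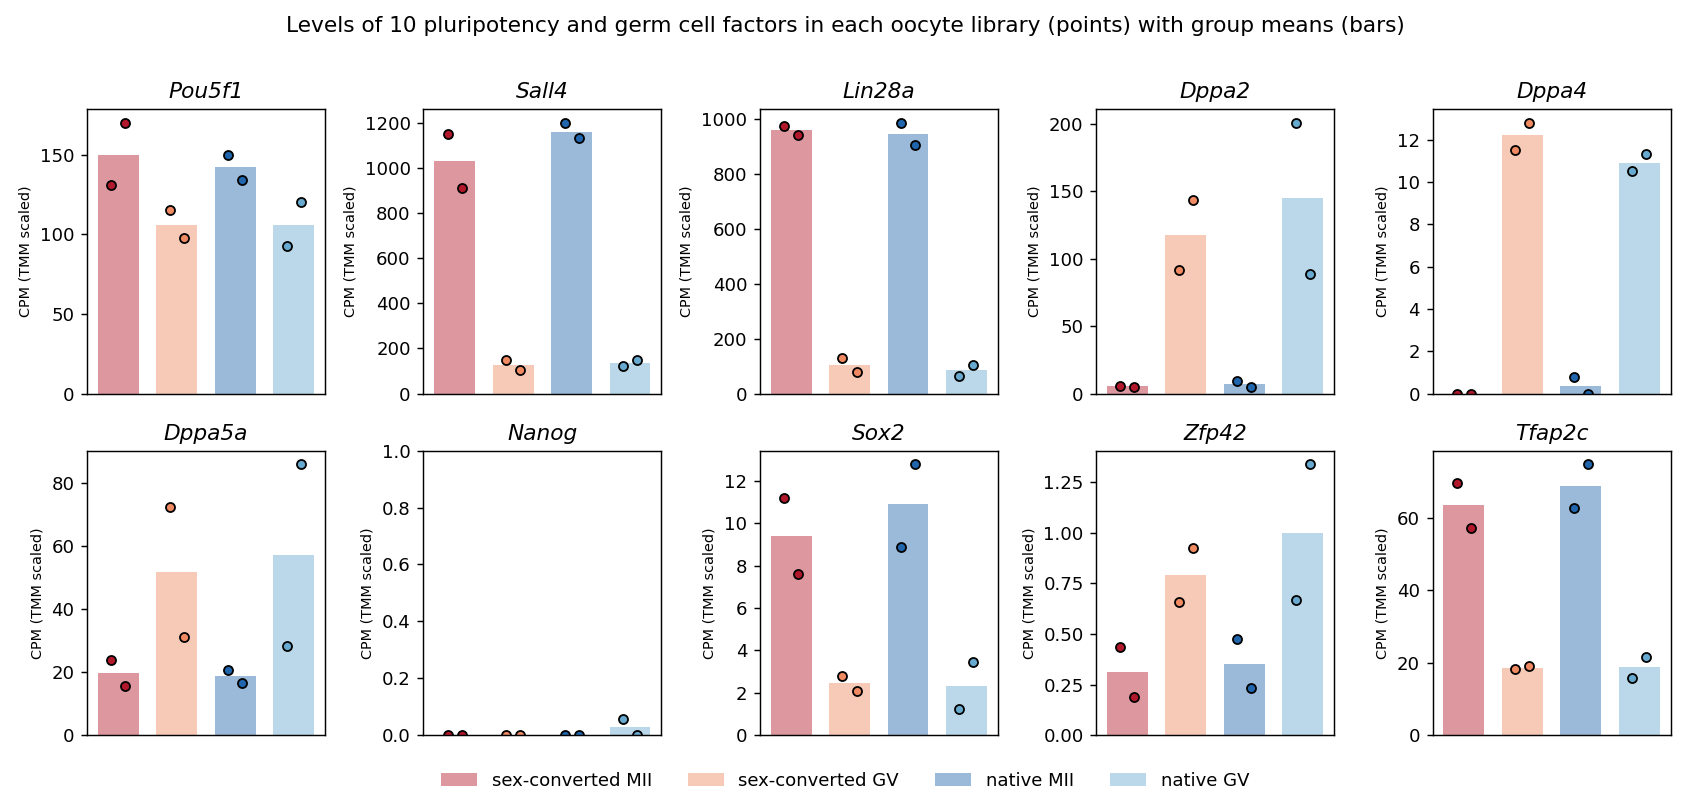
CPM of each of the 10 genes (one panel per gene, own linear scale from 0) in sex-converted MII, sex-converted GV, native MII and native GV oocytes; points are the 2 libraries of a group and bars their mean. Sall4, Lin28a, Sox2 and Tfap2c are higher in every MII library than in every GV library, Dppa2, Dppa4 and Dppa5a are lower, and Nanog has 1 read in all libraries together.

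The first question is how each mRNA changed in maturation. Of the 9 genes with enough reads to test, 4 rose and 3 fell from GV to MII in the sex-converted line, and the same numbers rose and fell in the native line (edgeR quasi-likelihood test, Benjamini-Hochberg adjusted p under 0.05 over 14929 genes). Among all genes tested, 29.3% rose and 36.2% fell in the sex-converted line, and 29.6% rose and 35.7% fell in the native line, 65.5% and 65.2% either way. A change in maturation was thus the common case, and the share called among these genes is no result about them as a group. Dppa4 and Zfp42 passed the filter on low counts through their GV libraries only, and Nanog, with 1 read in all 8 libraries, did not pass it. A gene kept only for its GV level is lower at MII by that choice, so the call of Dppa4, counted among the 3, gives no support of its own.

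Sall4 had 1150 and 909 CPM in sex-converted MII oocytes, against 151 and 104 CPM in sex-converted GV oocytes. In the native line it had 1200 and 1130 CPM in MII oocytes, against 124 and 147 CPM in GV oocytes. All 4 MII libraries were thus far above all 4 GV libraries. The log2 fold change was 3.01 ± 0.221 in the sex-converted and 3.10 ± 0.222 in the native line (± SE throughout for fold changes), which is 8.05-fold and 8.58-fold, with edgeR adjusted p of 1.23e-06 and 1.01e-06.

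Lin28a rose about as much as Sall4. It had 976 and 944 CPM in sex-converted MII oocytes, against 130 and 80.3 CPM in sex-converted GV oocytes. Native oocytes had 988 and 906 CPM at MII, against 65.3 and 104 CPM at GV. The MII libraries lay close together and the GV libraries spread more. The change was 9.14-fold in the sex-converted line (log2 3.19 ± 0.275, edgeR adjusted p 2.97e-06) and 11.2-fold in the native line (log2 3.48 ± 0.279, adjusted p 1.81e-06).

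Tfap2c, which encodes the AP-2 gamma transcription factor that primordial germ cells and trophoblast require, had 69.8 and 57.3 CPM in sex-converted MII oocytes, against 18.2 and 19.0 CPM in sex-converted GV oocytes. Its native levels were 62.9 and 74.9 CPM in MII oocytes, against 15.7 and 21.7 CPM in GV oocytes. The groups did not overlap, and it rose 3.42-fold in the sex-converted line (log2 1.77 ± 0.246, edgeR adjusted p 8.26e-05) and 3.68-fold in the native line (log2 1.88 ± 0.248, adjusted p 5.54e-05).

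Sox2 was low throughout. The reads were 102 and 80 in sex-converted MII oocytes, against 47 and 43 in sex-converted GV oocytes. In native oocytes they were 93 and 111 at MII, against 22 and 49 at GV. As levels these are 11.2 and 7.61 CPM against 2.80 and 2.1 CPM, and 8.88 and 12.8 CPM against 1.23 and 3.45 CPM, again without overlap. Sox2 rose with log2 fold changes of 1.94 ± 0.485 in the sex-converted line (edgeR adjusted p 0.00461) and 2.23 ± 0.493 in the native line (adjusted p 0.00211). Without native GV replicate 2 the native value was 3.14. The long noncoding gene Sox2ot overlaps Sox2 on the same strand, so some of these few reads could belong to it.

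Dppa2 and Dppa4 encode SAP domain proteins that bind each other and activate genes of the 2-cell embryo, and they are neighbours, 9670 bases apart on chromosome 16. Dppa2 had 5.69 and 4.95 CPM in sex-converted MII oocytes, against 91.6 and 144 CPM in sex-converted GV oocytes. In native oocytes it had 9.55 and 4.98 CPM at MII, against 201 and 89.1 CPM at GV. Every MII library was far below every GV library.

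Dppa2 thus fell 22.1-fold in the sex-converted line (log2 -4.47 ± 0.460, edgeR adjusted p 9.84e-06) and 19.8-fold in the native line (log2 -4.31 ± 0.451, adjusted p 1.09e-05). The native log2 value was -3.59 without GV replicate 1, the library with the highest level. Dppa4 had 0 and 0 reads in sex-converted MII oocytes, against 193 and 263 reads in sex-converted GV oocytes. The native line had 8 and 0 reads at MII, against 188 and 160 reads at GV. At GV these are 11.5 and 12.8 CPM in the sex-converted and 10.5 and 11.3 CPM in the native line.

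Against a floor of 3 reads over the group, Dppa4 was at least 80.1-fold lower at MII in the sex-converted line, and at least 37.2-fold to 83.9-fold lower when 1 library of that line was left out. In the native line its log2 fold change was -4.70 ± 0.696, given as a description since the gene passed the filter through its GV libraries only. All 8 reads at MII were in native replicate 1, the library with the most granulosa and stromal marker RNA, whose part in them was not tested. Without that library Dppa4 was at least 31.2-fold lower in the native line, and without native MII replicate 2 the log2 value was -3.84. Of the 75-base windows of their transcripts, 25.75% in Dppa2 and 23.7% in Dppa4 are also found in pseudogene or other gene models, which makes their levels uncertain.

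Dppa5a, an RNA-binding KH domain protein abundant in embryonic stem cells, had 24.0 and 15.7 CPM in sex-converted MII oocytes, against 72.5 and 31.3 CPM in sex-converted GV oocytes. Native oocytes had 20.8 and 16.7 CPM at MII, against 28.4 and 86.0 CPM at GV. The groups did not overlap, but the 2 GV libraries of each line were further apart than the lower one was from MII. Dppa5a fell, with log2 fold changes of -1.39 ± 0.506 in the sex-converted line (edgeR adjusted p 0.0314) and -1.61 ± 0.510 in the native line (adjusted p 0.0167).

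These 2 calls each rest on single libraries. The sex-converted change was -0.656 without its GV replicate 1 (edgeR adjusted p 0.289) and -1.11 without its MII replicate 2 (0.168). The native change was -0.606 without its GV replicate 2 (0.242) and -1.48 without its MII replicate 2 (0.077). Other gene models, among them the copies Dppa5b and Dppa5c and also Pigp, share 19.45% of the 75-base windows of its transcript.

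Pou5f1 had 131 and 170 CPM in sex-converted MII oocytes, against 115 and 97.5 CPM in sex-converted GV oocytes. The native line had 150 and 134 CPM at MII, against 92.6 and 120 CPM at GV. Each MII library was above each GV library, by a small margin. The log2 difference, 0.51 ± 0.214 in the sex-converted and 0.42 ± 0.214 in the native line, did not pass the test (edgeR adjusted p 0.0565 and 0.105, 95% intervals 0.0344 to 0.975 and -0.051 to 0.890). It passed in the sex-converted line with other scalings, at 0.56 with RLE size factors (adjusted p 0.0372), 0.53 with upper quartile factors (0.0453) and 0.56 with DESeq2 (0.0418). It passed in that line too without sex-converted MII replicate 1 (0.678, adjusted p 0.0492), native GV replicate 1 (0.528, 0.0307) or native GV replicate 2 (0.519, 0.0338), and in the native line without native GV replicate 2 (0.614, 0.0473). With library totals alone its sign turned, to -0.434 in the sex-converted and -0.496 in the native line.

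Over all tested genes the median log2 fold change was -0.345 in the sex-converted and -0.307 in the native line with TMM, and scaling by library totals moved it by a further -0.932 and -0.908. The share of calls that were higher at MII was then 23.4% in place of 44.7% in the sex-converted line and 24.6% in place of 45.3% in the native line. Under that scaling Sall4, Lin28a and Tfap2c were still called higher in both lines and Sox2 in the native line, and Sox2 in the sex-converted line was at 1.00 (edgeR adjusted p 0.0988). All values here are therefore changes relative to the other mRNAs, and a change in mRNA per oocyte was not measured.

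Zfp42 (Rex1), a zinc finger gene of the YY1 family that marks naive embryonic stem cells, had 4 and 2 reads in sex-converted MII oocytes, against 11 and 19 reads in sex-converted GV oocytes. In the native line it had 5 and 2 reads at MII, against 12 and 19 reads at GV. Its log2 fold changes of -1.34 ± 0.868 and -1.44 ± 0.848 did not pass the test (edgeR adjusted p 0.194 and 0.157), although with library totals alone they were -2.25 and -2.34 and passed (0.0358 and 0.0282). Nanog was at 0 reads in 7 libraries and at 1 read in native GV replicate 1, and the floor of 3 reads over a group is 0.153 CPM in sex-converted MII, 0.0804 CPM in sex-converted GV, 0.157 CPM in native MII and 0.0933 CPM in native GV oocytes. Nanog mRNA was thus not detectable at this depth in any group.

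**Figure D2:**
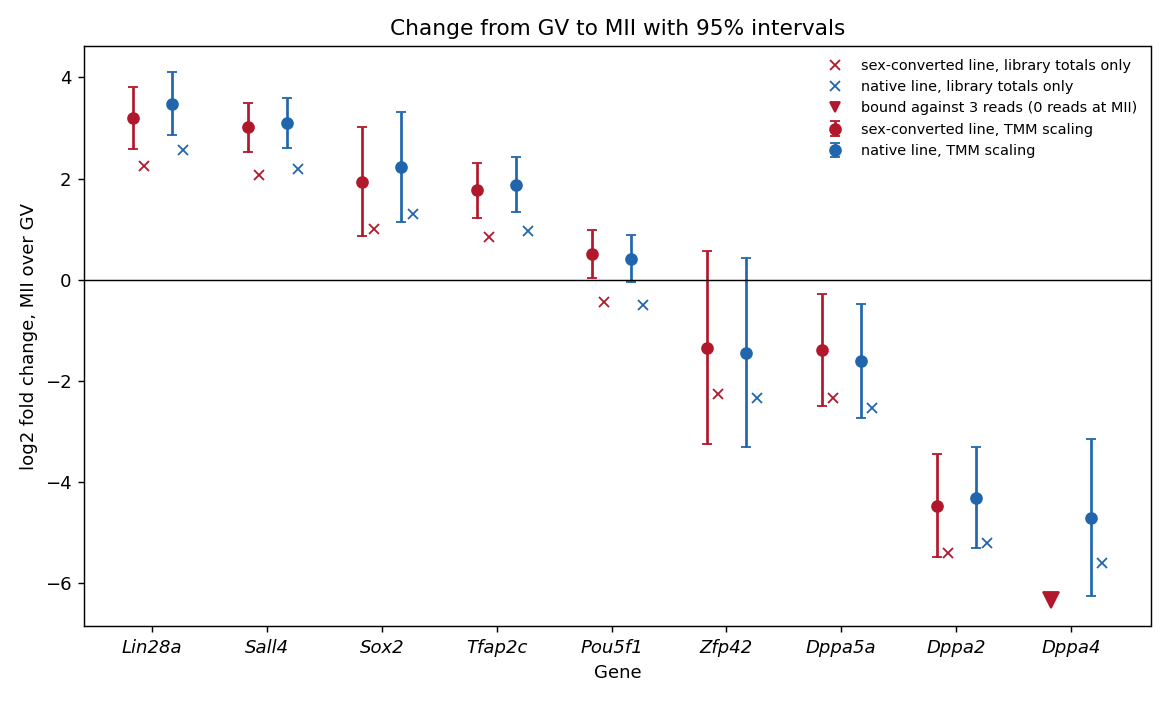
Log2 fold change, MII over GV, of the 9 tested genes in the sex-converted (red) and native (blue) lines with 95% intervals. Crosses are the values with library totals alone. The triangle is the value of Dppa4 against a floor of 3 reads in the sex-converted line, where MII libraries had 0 reads. Lin28a and Sall4 lie near 3 and Dppa2 below -4 in both lines, and the crosses of Pou5f1 lie on the other side of 0.

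The ends of these mRNAs are shown because polyadenylated RNA was selected. Cytoplasmic polyadenylation elements are U-rich motifs close to the poly(A) signal that, as background, guide lengthening of the tail in maturing oocytes. On the sense strand of the annotated 3' UTR, TTTTAT or TTTTAAT was searched as such an element and AATAAA or ATTAAA as a poly(A) signal. In the last 100 bases 0 of 10 genes held the element, against 19.9% of all tested genes with a 3' UTR of that length, 32.8% of those called higher and 10.6% of those called lower in native MII oocytes. The poly(A) signal was there in 8 of 10 genes, against 81.7% of all tested genes, and the other 2 were Dppa2 and Dppa4.

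Within the last 200 bases, 4 of the 9 genes with a 3' UTR that long (all but Dppa5a) held the element, namely Lin28a, Dppa2, Sox2 and Zfp42. It was held by 30.6% of tested genes with such a UTR, 45.9% of those called higher and 18.4% of those called lower in native MII oocytes. Lin28a and Sox2 rose, Dppa2 fell and Zfp42 did not pass the test, so a match did not come with 1 direction among these 4. The matches of Dppa2, TTTTAT and TTTTAAT, lie 197 and 147 bases from the transcript end. Its last 200 bases hold no poly(A) signal, so these matches are not shown to lie close to one. Sall4 and Pou5f1, with and without a called change, both end in an AATAAA signal 27 and 25 bases from the transcript end. The sequences below are 30 bases each, 5' to 3', from GENCODE M21 transcripts on GRCm38, with the motifs in capitals. They lie at chr2:168748332-168748361 (Sall4, minus strand), chr17:35510743-35510772 (Pou5f1, plus strand), chr9:78367052-78367081 (Dppa5a, minus strand), chr4:134003452-134003481 (Lin28a, minus strand), chr3:34652270-34652299 (Sox2, plus strand) and chr16:48319527-48319556 (Dppa2, plus strand), all in the 3' UTR. The first 3 are transcript ends with poly(A) signals, and the last 3 hold the TTTTAT element.
Sall4: gaaAATAAAgtgaatgttttccctccatga
Pou5f1: tcttaAATAAAgactgggacacacagtaga
Dppa5a: aAATAAAaAATAAAattgaagtgATTAAAa
Lin28a: ctgcctggggtgTTTTATttcctagttgat
Sox2: gtttttccccccTTTTATtttccgtagttg
Dppa2: TTTTATatatccaagacagggtcttttgca
A match describes these letters only. The end that an oocyte uses can differ from the annotated one, and tail length was not measured.

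The GV libraries fell into a pattern that crossed the lines. The summed level of the 13 mitochondrially encoded protein genes was 526 CPM in sex-converted GV replicate 1 and 1670 CPM in replicate 2, and 1870 CPM in native GV replicate 1 and 558 CPM in replicate 2. Of the 9 tested genes, 5 (Pou5f1, Sall4, Lin28a, Dppa5a and Sox2) were higher in the library with less mitochondrial RNA in both lines, and 1 (Dppa2) was lower in both. Of all 14929 genes tested 35.1% were higher and 36.2% lower in both, 71.3% either way, so agreement between the lines was the common case and 6 of 9 is no result about these genes. Dppa5a differed 2.32-fold between the sex-converted and 3.03-fold between the native GV libraries, and Lin28a 1.62-fold and 1.60-fold, in the same direction. Khdc3, a maternal KH domain gene that lies 5262613 bases from Dppa5a on chromosome 9, followed Dppa5a with 136 and 49.0 CPM in the sex-converted and 51.6 and 141 CPM in the native libraries. The related genes Khdc1a, Khdc1b and Khdc1c were also higher, in CPM, in the library of each line with less mitochondrial RNA. Ooep, another KH domain gene, only 7931 bases from Dppa5a, had 789 and 896 CPM in the sex-converted and 996 and 931 CPM in the native libraries and did not follow it.

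The part of this split in the results was not tested beyond leaving libraries out. Without the 2 libraries rich in mitochondrial RNA, 4 genes were called higher at MII and 3 lower in each line. Without the 2 libraries poor in it, 5 were called higher and 2 lower in each line: Pou5f1 was then called higher, at 0.637 in the sex-converted and 0.610 in the native line, and Dppa5a was no longer called, at -0.654 and -0.610. The alternatives that leave out 2 libraries together were chosen after the data were seen.

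**Figure D3:**
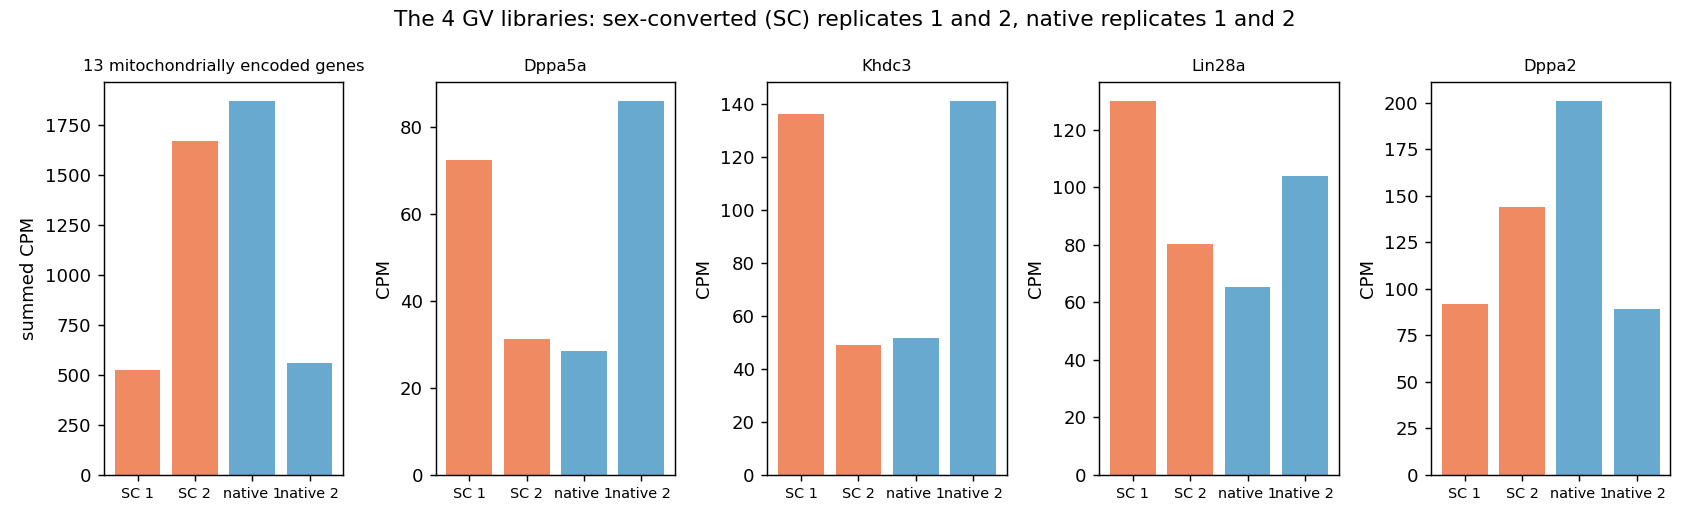
Levels in the 4 GV libraries (CPM; linear axes from 0; 1 bar per library, sex-converted in orange and native in blue) of the 13 mitochondrially encoded genes summed, Dppa5a, Khdc3, Lin28a and Dppa2. Dppa5a, Khdc3 and Lin28a are high where mitochondrial RNA is low, in sex-converted replicate 1 and native replicate 2, and Dppa2 is high in the other 2 libraries.

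The second question is whether the lines differed. None of the 9 tested genes passed the test between sex-converted and native oocytes at MII, at GV or in the interaction, which compares the change in maturation between lines (0 of 9 by edgeR and by DESeq2 in each). Among all genes 0.0134% were called at MII and 0.0134% at GV, 0.0067% in each direction at each stage, and 0% in the interaction. At an unadjusted p under 0.05 there was 1 gene at MII, 0 at GV and 1 in the interaction, against 3.68%, 2.14% and 2.2% of all genes tested. It was Dppa4 in both cases, whose 8 reads were in native MII replicate 1.

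For the 5 genes with at least 100 reads in every library the intervals show how large a difference could have gone unseen. At MII the log2 fold change, sex-converted over native, was -0.18 for Sall4 (95% interval -0.627 to 0.272), 0.019 for Lin28a (-0.537 to 0.574), 0.082 for Pou5f1 (-0.388 to 0.552), -0.12 for Tfap2c (-0.641 to 0.408) and 0.078 for Dppa5a (-1.05 to 1.20). At GV the same difference was -0.085 for Sall4 (-0.538 to 0.367), 0.31 for Lin28a (-0.250 to 0.872), -0.0035 for Pou5f1 (-0.472 to 0.465), -0.0078 for Tfap2c (-0.542 to 0.527) and -0.14 for Dppa5a (-1.21 to 0.934). A difference of 2-fold lay outside the intervals of Sall4, Lin28a, Pou5f1 and Tfap2c at both stages and inside those of Dppa5a. These p-values and intervals rest on 2 libraries a group, which the labels call biological duplicates.

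**Figure D4:**
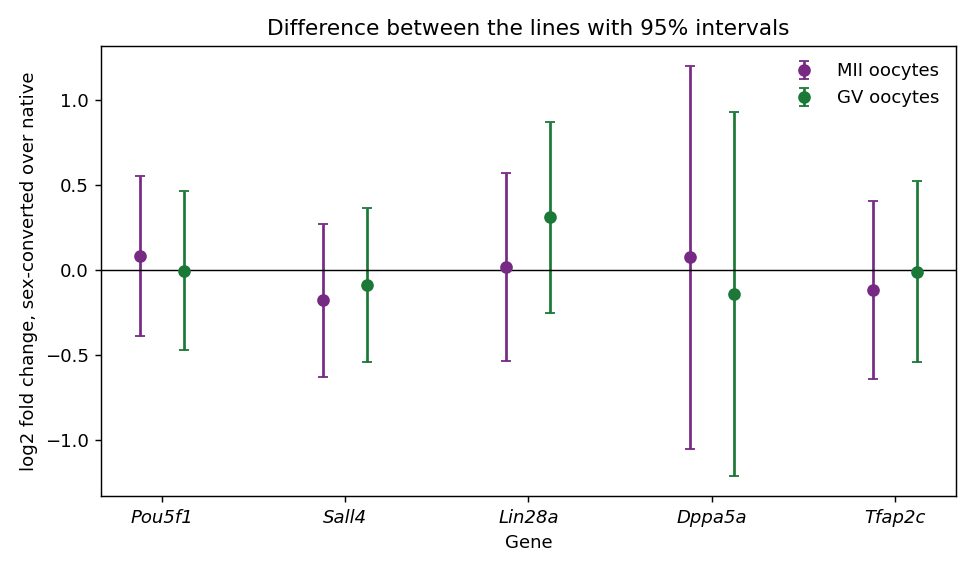
Log2 fold change, sex-converted over native, with 95% intervals in MII (purple) and GV (green) oocytes for the 5 genes with at least 100 reads in every library. All 10 intervals include 0, and those of Dppa5a are the widest.

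The other genes of the same pathways and families were read from lists. Over all tested genes 29.3% rose and 36.2% fell in the sex-converted line, and 29.6% rose and 35.7% fell in the native line. The counts called in each list below were not tested against these shares. Of 26 other naive and core pluripotency genes, 15 had enough reads, and 8 rose and 2 fell in each line. The 2 that fell were Gbx2 and Esrrb in the sex-converted line and Gbx2 and Lifr in the native line. Esrrb was at -1.03 in the sex-converted (edgeR adjusted p 0.00868) and -0.584 in the native line (0.0952), and its difference between the lines was not called. The median log2 fold change of the 15 was 0.88 in the sex-converted and 0.94 in the native line, against -0.345 and -0.307 over all genes. With library totals alone the balance was another, 6 higher and 7 lower in the sex-converted and 6 and 6 in the native line. Tbx3, a T-box factor that helps maintain stem cell self-renewal, rose by 3.17 ± 0.275 in the sex-converted and 3.24 ± 0.276 in the native line on the log2 scale (edgeR adjusted p 3.11e-06 and 2.73e-06), and Klf2 by 2.15 ± 0.403 and 2.73 ± 0.417 (0.000697 and 0.000166). Gbx2, a homeobox gene of naive cells, went the other way, with 4.79 ± 1.12 CPM in sex-converted MII against 143 ± 7.24 CPM in sex-converted GV oocytes and 6.22 ± 2.41 CPM in native MII against 165 ± 19.7 CPM in native GV oocytes (SD, n = 2 each). Tet2, which oxidises methylcytosine, rose by 2.80 and 2.82, and Lifr, the receptor subunit for LIF, was at -1.43 in the native line, where it passed the test (adjusted p 0.017), and at -0.355 in the sex-converted line, where it did not (0.498), although with library totals alone it passed in both (-1.28, adjusted p 0.0234, and -2.34, 0.00099). The difference between the lines did not pass (interaction adjusted p 1). Of the 10 stem cell markers, some of them in that list, 6 were tested, and 3 rose and 2 fell in the sex-converted and 3 rose and 1 fell in the native line (2 and 3, and 2 and 2, with library totals alone). Fbxo15 rose by 2.36 and 2.30 and Klf4 by 0.884 and 0.937, although with library totals alone Klf4 was at -0.058 and 0.024.

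Germ cell genes showed 8 of 13 tested higher and 3 lower in the sex-converted line and 7 higher and 3 lower in the native line, with median log2 fold changes of 1.035 and 0.517. With library totals alone 2 were higher and 5 lower in the sex-converted and 1 higher and 6 lower in the native line. Dazl, an RNA-binding protein that promotes translation in germ cells, averaged 873 ± 8.94 CPM in sex-converted MII against 256 ± 49.3 CPM in sex-converted GV oocytes and 657 ± 113 CPM in native MII against 211 ± 19.8 CPM in native GV oocytes (SD, n = 2 each). Sycp3, of the synaptonemal complex, and Ddx4, an RNA helicase of germ cells, rose too, by 1.35 and 1.21 on the log2 scale in the native line; with library totals alone these were 0.442 and 0.304 and did not pass. Tdrd12 and Mael, of the piRNA pathway, fell, with -3.75 and -2.75 in the native line. So did Prdm1 (Blimp1), a regulator of germ cell specification, with -0.610 ± 0.220 in the sex-converted and -0.794 ± 0.222 in the native line. Both lines carry Blimp1-mVenus and Stella-ECFP transgenes. Whether these added reads to Prdm1 or to Dppa3 (Stella), a gene of this list and of the oocyte markers, was not tested.

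In the Lin28 and let-7 pathway the 16 tested genes split evenly, with 6 higher and 6 lower in the sex-converted and 7 higher and 7 lower in the native line, and medians of -0.192 and 0.055. With library totals alone 4 were higher and 8 lower in each line. Igf2bp1, counted among those higher, passed the filter on low counts through its MII libraries only, so its call gives no support of its own. Lin28b, the paralog of Lin28a, rose by 1.62 ± 0.240 in the sex-converted and 1.70 ± 0.241 in the native line. Dis3l2, the nuclease that degrades uridylated let-7 precursors, rose by 1.68 and 2.08, and Arid3a, a DNA-binding protein, by 1.92 and 2.65. Drosha and Xpo5, which cut and export microRNA precursors, fell, with -2.06 and -2.76 in the sex-converted and -2.19 and -2.47 in the native line. Hmga2, a chromatin protein whose mRNA is a let-7 target, fell too, with -2.04 in the sex-converted and -2.46 in the native line.

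Subunits of NuRD and the other Sall genes were higher at MII in 7 of 14 tested cases in each line, and lower in 3 in the sex-converted and 2 in the native line, with medians of 0.633 and 0.513. With library totals alone 4 were higher in each line, and 6 lower in the sex-converted and 7 in the native line. Hdac1, counted among those lower, would not have passed the filter on MII libraries alone, so its call gives no support of its own. Rbbp7, a histone-binding subunit, averaged 3910 ± 26.2 CPM in sex-converted MII against 857 ± 138 CPM in sex-converted GV oocytes and 4090 ± 395 CPM in native MII against 891 ± 96.9 CPM in native GV oocytes (SD, n = 2 each). Gatad2b and Gatad2a rose by 2.12 and 1.77 in the native line, and Mbd3, a subunit named for its methyl-binding domain, fell, with -1.55. Of the 20 genes of the 2-cell embryo listed as downstream of Dppa2 and Dppa4, 6 were at 0 reads in all libraries and 6 were tested. Of these, 3 fell in the sex-converted and 2 in the native line and 0 rose, and with library totals alone 5 fell in each line. Zscan4d, called lower in both lines, Usp17lc and Tmem92 passed the filter on low counts through their GV libraries only. The falls and the lack of rises in this list are thus partly set by that choice. Tcstv1 had 12.2 ± 0.351 CPM in sex-converted MII against 16.1 ± 1.07 CPM in sex-converted GV oocytes and was not called (edgeR adjusted p 0.216; 0.137 in the native line). It was called lower in both lines with library totals alone, at -1.33 (0.00127) and -1.40 (0.000967). Usp17le, a ubiquitin protease gene, fell, with -1.63 and -2.14. Several of these genes are near-identical copies, so their counts are uncertain.

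Relatives of the other factors moved in both directions. Tfap2e, a paralog of Tfap2c, had 38.4 ± 7.99 CPM in sex-converted MII against 308 ± 30.4 CPM in sex-converted GV oocytes and 41.5 ± 3.33 CPM in native MII against 322 ± 116 CPM in native GV oocytes (SD, n = 2 each), a change opposite to that of Tfap2c. Cited2, a co-activator of AP-2 proteins, fell, with -2.83 in the sex-converted and -3.21 in the native line. Of the 5 tested AP-2 genes and co-activators, 3 fell in the sex-converted and 2 in the native line and 0 rose, with medians of -2.83 and -1.61. With library totals alone 3 and 4 fell. Cited1, counted among the 3, passed the filter on low counts through its GV libraries only, so its call gives no support of its own. Of 7 other POU genes, 1 rose, 1 fell and 5 did not pass in each line (medians 0.533 and 0.269), and with library totals alone 3 in the sex-converted and 4 in the native line were lower. Pou2f1 rose by 1.80 and 1.91. Pou2f3, which fell, had 3 and 0 reads in sex-converted MII against 56 and 106 in sex-converted GV oocytes, and in the native line 3 and 3 at MII against 107 and 90 at GV. Like Dppa4 it passed the filter through its GV libraries only, so this call gives no support of its own. Of 8 other SOX genes, 3 rose and 3 fell in each line, with medians of -0.102 and -0.633. With library totals alone 1 rose in each line, and 4 fell in the sex-converted and 3 in the native line. On MII libraries alone Sox5 and Sox12 would not have passed the filter, nor would Sox4 on GV libraries alone. Calls of these genes, falls for Sox5 and Sox12 and rises for Sox4, give no support of their own. Sox6 rose by 1.51 and 1.29, though by 0.58 and 0.381 and without passing with library totals alone, and Sox15 and Sox12 fell, with -3.47 and -3.21 in the native line, as did Sox8 with -1.11. In the sex-converted line Sox8 was at -0.736 and did not pass (edgeR adjusted p 0.0613), but with library totals alone it did (-1.67, 0.000763). Yy1, the relative of Zfp42 from which that family takes its name, rose by 0.636 in the sex-converted (edgeR adjusted p 0.0446) and 1.18 in the native line (0.00198); with library totals alone it was at -0.306 and 0.267.

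All 5 KH domain genes related to Dppa5a were called, 3 higher and 2 lower in each line, with medians of 0.737 and 0.698 (1 higher and 2 lower in each line with library totals alone). Of all genes tested, 65.5% in the sex-converted and 65.2% in the native line were called either way, so a call was the common case. Ooep, part of the maternal complex under the oocyte membrane, fell, with -2.46 ± 0.257 in the sex-converted and -2.43 ± 0.257 in the native line, and so did Khdc3, with -2.1 ± 0.577 and -2.22 ± 0.580. Khdc1b, Khdc1c and Khdc1a rose by 1.74, 0.947 and 0.737 in the sex-converted line and by 1.69, 0.732 and 0.698 in the native line; they are close copies of each other, so reads could be split among them, and with library totals alone Khdc1c and Khdc1a had values of 0.0066 and -0.202 in the sex-converted and -0.184 and -0.217 in the native line. The lists of oocyte, granulosa and stromal markers changed as well. In the native line 3 of 12 oocyte markers rose and 6 fell, 5 of 10 granulosa and cumulus markers rose and 1 fell, and 4 of 6 stromal markers rose and 0 fell. In the sex-converted line the counts were 3 and 7, 4 and 1, and 4 and 0. The stromal markers that rose, Spp1, Acta2, Vim and Thbs1, would not have passed the filter on low counts on GV libraries alone. Figla, an oocyte marker that fell, and Fshr, the granulosa marker that fell, would not have passed on MII libraries alone. These calls give no support of their own. Scaled by library totals alone, 1 oocyte marker rose in each line, and 8 fell in the sex-converted and 9 in the native line. Under that scaling 2 granulosa and cumulus markers rose and 2 fell in the sex-converted line and 4 rose and 2 fell in the native line, and the stromal counts were the same.

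**Figure D5:**
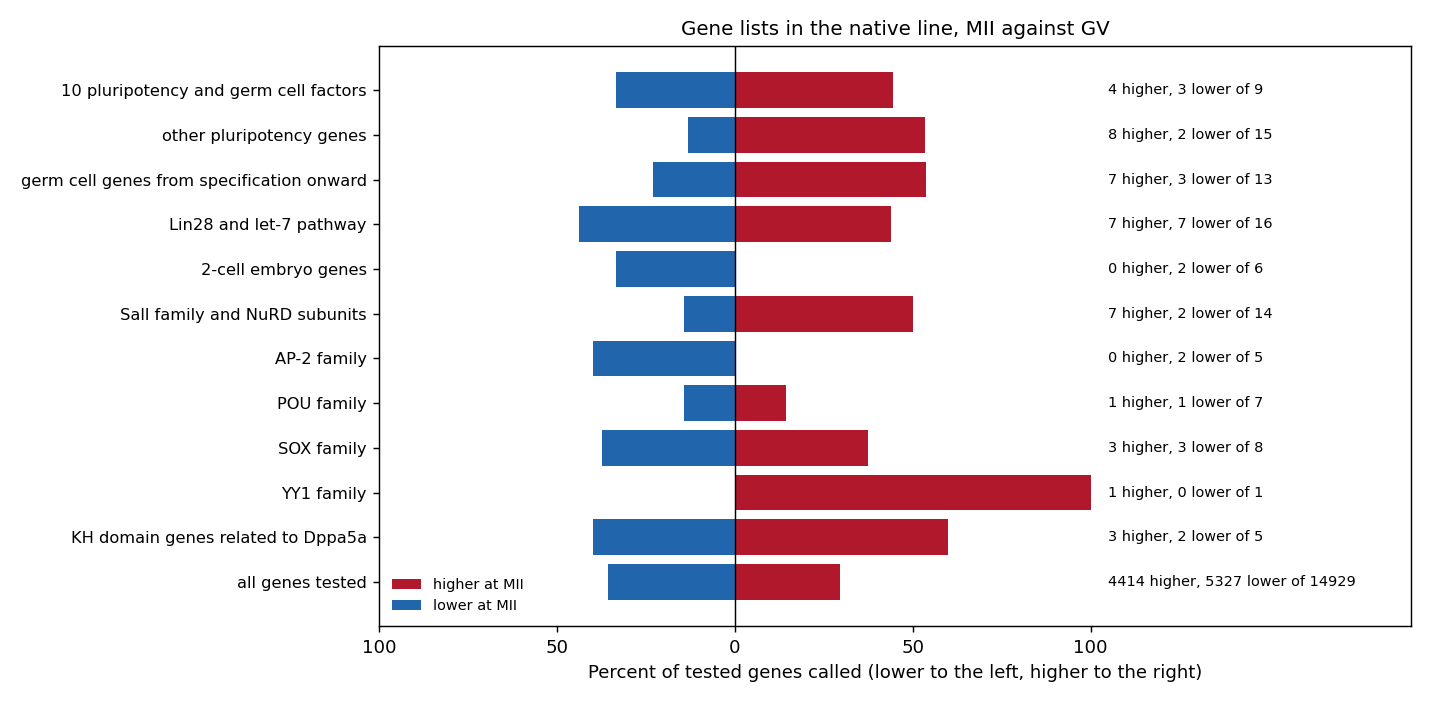
Percent of the tested genes of each list, and of all genes tested, that were called higher (red, to the right) or lower (blue, to the left) in native MII over native GV oocytes, with the counts beside each bar. The other pluripotency genes have 8 higher and 2 lower of 15 against 29.6% and 35.7% of all genes. With library totals alone they have 6 higher and 6 lower. The AP-2 and 2-cell lists have 0 higher, but some of their genes passed the filter on low counts through their GV libraries only.

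Genes whose profile over the 8 libraries was most like that of the 3 factors with the highest mean CPM over all 8 libraries, not divided by length, were found by the root mean square difference of centred log2(CPM + 1) values. The search took in 7330 tested genes with a mean of at least 10 CPM. It left out predicted gene models, genes without a symbol and the 10 genes described, which could not match each other. For Sall4 they were Stard3nl (0.101), Slc6a6 (0.111) and Tbx3 (0.115). For Lin28a they were Inpp4a (0.112), Llgl2 (0.137) and Mex3d (0.144), and for Pou5f1 they were Pdhx (0.072), Gtpbp2 (0.075) and Usp24 (0.090). This is a description over 8 libraries that share 2 stages, and many genes changed in maturation as much.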

How the data were processed

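The authors deposited raw counts per gene, unnormalized, from 75-base single reads of stranded polyadenylated RNA libraries amplified with 13 PCR cycles per the labels. Per the submitters' processing notes, Trimmomatic 0.38, HISAT2 2.1.0, featureCounts 2.0.0, DESeq2 1.30.1 and mm10 were used; which strand was counted, how multiply matched reads were treated and which annotation was used is not given in the sources used. Reads of Pou5f1, Sall4 and Lin28a cannot be told from those of antisense genes that overlap them if strand was ignored. Of 55385 genes, 55144 were matched to GENCODE M21 (GRCm38) by identifier without version and 241 were not.

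The test was edgeR 4.0.16 under R 4.3.3 (estimateDisp, glmQLFit, glmQLFTest, two-sided) with TMM factors of 1.33 to 1.43 at GV and 0.714 to 0.733 at MII. The 8 libraries shared 1 fit, with the 4 groups as coefficients and 4 residual degrees of freedom, after filterByExpr by group (minimum count 10, totals taken over the 14929 genes kept); the pipeline was tested on simulated data. A gene was called at an adjusted p under 0.05. Standard errors are log2 fold changes, without sign, divided by the root of the F statistic. Near copies were found as 75-base windows of a transcript that occur in another gene's transcripts. Intervals and floors cover counting error or the spread between libraries, and PCR reads are not independent molecules.

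Alternatives were RLE, upper quartile or library total scaling, DESeq2 1.42.0, no filter, a minimum mean of 50 reads, the 4 libraries of a comparison alone, a replicate block, each library left out, the longest transcript for length and a window of 200 bases. The 10 genes and the 14 other gene lists were chosen with earlier results of these data known. From each list the text names up to 3 genes called in each direction in the native line, by size of the change, leaving out genes under 5 CPM in the group where they are higher, or else the 2 most abundant. Of the oocyte, granulosa and stromal lists counts and sums are given. Other list genes, except Esrrb and Dppa3, are named only for their detection, their share of a sum or the filter on low counts. Esrrb is named because its call differed between the lines, and Dppa3 because of the Stella-ECFP transgene.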

Additional observations from a re-analysis of the deposited data

How the results depend on the processing

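Counts of genes called in maturation were 3 to 5 higher and 2 to 4 lower in the sex-converted line and 4 to 5 higher and 2 to 4 lower in the native line, and 0 between the lines and in the interaction, under every alternative run; with 1 library left out they were 4 to 5 higher and 2 to 3 lower in each line. Between the lines no gene was called, and small log2 differences changed sign. At GV Pou5f1 was at 0.0437 with library totals and 0.0107 with upper quartile factors, and Tfap2c at 0.0356 and 0.00557; at MII Lin28a was at -0.0177 with upper quartile factors and -0.00603 with a minimum mean of 50 reads. With 1 library, or the 2 GV libraries alike in mitochondrial RNA, left out, the GV differences ran from -0.17 to 0.191 for Pou5f1, -0.371 to 0.149 for Sall4, -0.0651 to 0.68 for Lin28a, -0.856 to 0.861 for Dppa5a and -0.268 to 0.267 for Tfap2c, and the MII differences from -0.106 to 0.273 for Pou5f1, -0.0222 to 0.0975 for Lin28a, -0.243 to 0.368 for Dppa5a and -0.253 to 0.034 for Tfap2c; the cause was not tested. In maturation, Pou5f1 turned to -0.434 in the sex-converted and -0.496 in the native line with library totals. Relative to TMM, that scaling moves all genes down at MII. Which of the scalings is closer to mRNA per oocyte was not tested. Where 1 library of a group was left out, the lone library was taken to vary like the other groups.

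Replicate numbers did not pair the samples: same-numbered libraries had deviations that correlated at -0.756 between the GV groups and from -0.123 to 0.209 between the other pairs of groups. With a replicate block 4 genes were called higher and 3 lower in maturation in each line and 0 between lines, and Pou5f1 at GV was at 0.00556. With the numbers crossed between the GV groups, a choice made after the data were seen, 23 genes of the whole table were called between lines in place of 2, and 0 of the 10 described, with Pou5f1 at 0.00153 and Tfap2c at 0.0078.

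Depth limits Nanog, Zfp42 and Dppa4 at MII, which had at most 8 reads in any MII library. With the longest transcript in place of all exons, Pou5f1 in the native line was at 104 CPM per kilobase at MII and 78.1 at GV.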
